A study of Mus musculus with 12 samples.

Results

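Mouse aortic endothelial cells from WD offspring of WD mothers (WD_WD) were compared with those from CD offspring of CD mothers (CD_CD), so that both diets differed between the groups. The comparison used 6 of the 12 libraries of the study, 3 in each group, and all 10655 genes of the deposited table. Libraries were taken by group label and not by any measured value, but the comparison was chosen with earlier results of these data known. Each title joins 2 diet names. They were read as the diet of the mother followed by that of the offspring, the order used for the groups in the series text, although no title states it. The remaining 6 libraries were WD offspring of CD mothers (CD_WD, 3 libraries) and CD offspring of WD mothers (WD_CD, 3 libraries), which entered the estimate of the spread. Per the series text, offspring in the WD_WD and CD_WD groups had a further 4 weeks of WD before cells were taken, and the study concerned a maternal high-fat diet and atherosclerosis in offspring. The abbreviations CD and WD are those of the labels. The sources used here name no batch, no sorting of the cells, and neither the age, the sex nor the genotype of the animals. Nor do they say that replicates came from separate animals, so p-values measure the spread between libraries only, and that spread may be technical. Since both diets change together in this contrast, the mother's and the offspring's diet cannot be told apart within it.

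The aortic endothelium is the single cell layer that lines the vessel. It holds leukocytes off the wall, passes signals from blood flow through nitric oxide and the KLF factors, and sits on a basement membrane above smooth muscle. In atherosclerosis, lipoproteins are retained below this layer, monocytes enter, take up lipid and become foam cells, and these cells load their lysosomes with cholesterol, ferritin and cathepsins. A preparation of aortic endothelial cells from a diseased wall can therefore hold RNA of macrophages, lymphocytes, smooth muscle and fibroblasts. In bulk RNA of this kind, fewer cells of a type and less RNA per cell cannot be told apart.

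RNA was read by SMART-seq, which copies and reads transcripts over their full length, and each value is a normalised count, the number of reads of a gene divided by a size factor of its library. Reads in the 10655 genes numbered 4074413 to 12487609 in WD_WD libraries and 16966696 to 19670570 in CD_CD libraries, and 1 read was worth 1.52 to 3.96 normalised counts in WD_WD libraries and 0.347 to 0.409 in CD_CD libraries. Values under 4.55 to 11.9 in WD_WD libraries and under 1.04 to 1.23 in CD_CD libraries stand for fewer than 3 reads. In WD_WD libraries the 20 most read genes held 39.0% to 44.5% of reads and in CD_CD libraries 12.9% to 14.3%. On the first principal component, which held 42.5% of the variance over the 12 libraries, WD_WD libraries lay between 77.9 and 118 and CD_CD libraries between -96.4 and -58.8. Within the CD_WD group, replicate 1 stood apart in most cell type lists, with a mean level of pan-endothelial genes of 6.02 on the log2 scale, against 9.67 and 10.3 in the other 2 CD_WD libraries. Values of 3 libraries are given below in the order of replicates 1, 2 and 3.

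Of 10655 genes, 1390 were higher in WD_WD (13.0%) and 1104 were lower (10.4%) at an adjusted p under 0.05 in limma, the linear model used for every test below. Among them, 1364 of those called higher and 1102 of those called lower changed over 2-fold. The median log2 fold change was 2.22 among genes called higher, -2.64 among genes called lower and -0.10 over all genes. Scaling each library by its total count gave 407 higher and 4462 lower genes, and upper quartile scaling gave 1092 higher and 1433 lower genes. The median of all genes stood at -1.49 under total count scaling, -0.33 under upper quartile scaling and -0.21 under TMM scaling, so each fold change below is relative to the typical gene of its library. Among the gene lists, 12 of 16 neutrophil and monocyte genes, 19 of 27 core macrophage genes, 8 of 11 MHC class II genes and 13 of 16 V-ATPase genes were called higher. Lower were 20 of 27 collagen and basement membrane genes, 16 of 29 pan-endothelial genes and 11 of 20 smooth muscle genes. Where a list is described below by calls in 1 direction, limma called 0 of its members in the other, edgeR called 0 and DESeq2 at most 2, and at most 2 had an unadjusted p under 0.05 there. Leaving out CD_CD replicate 1 left 855 higher and 457 lower genes, CD_CD replicate 2 865 and 446, and CD_CD replicate 3 1109 and 626. Without WD_WD replicate 2 there were 979 higher and 823 lower genes, and without WD_WD replicate 3 1050 and 896.

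**Figure D1:**
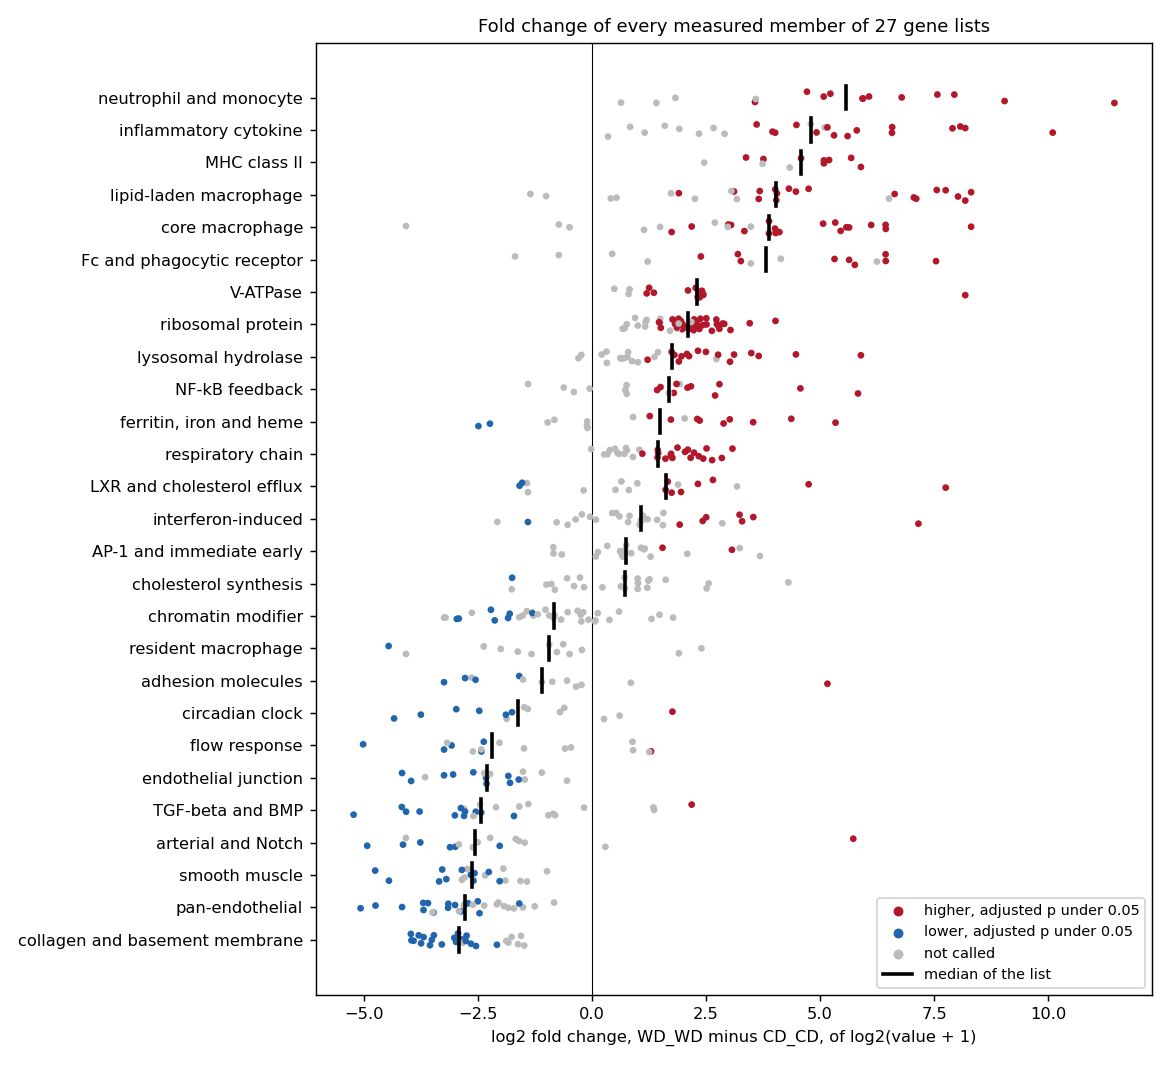
Each point is 1 measured gene of 1 of 27 gene lists, placed by its log2 fold change of WD_WD minus CD_CD on the log2(value + 1) scale; red and blue points passed an adjusted p of 0.05 in limma and black bars are list medians. Neutrophil, cytokine, MHC class II, lipid-laden macrophage and core macrophage lists lie to the right, with medians of 3.88 to 5.58, and pan-endothelial, smooth muscle and collagen lists lie to the left, with medians of -2.92 to -2.62.

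Endothelial markers were read in every library, which bears on the label of the cells. Pecam1, an adhesion protein of endothelial junctions, had 4277, 2537 and 3172 in WD_WD, against 21538, 29878 and 17284 in CD_CD. Vwf, the von Willebrand factor stored in endothelial granules, had 2222, 1109 and 946 in WD_WD, against 12290, 23385 and 17725 in CD_CD. The mean level of 29 pan-endothelial genes was 9.44, 8.18 and 8.40 on the log2(value + 1) scale in WD_WD libraries and 11.4, 11.5 and 11.4 in CD_CD libraries. Over the same libraries the mean level of 27 core macrophage genes was 12.079, 12.009 and 11.670 in WD_WD libraries and 7.993, 8.995 and 8.313 in CD_CD libraries. In the summed normalised counts of the lists, pan-endothelial genes held 20613 to 35224 in WD_WD libraries and 126003 to 156597 in CD_CD libraries, and core macrophage genes held 664718 to 1181096 in WD_WD libraries and 26305 to 36873 in CD_CD libraries. Endothelial genes were therefore present in both groups, and core macrophage genes gave more normalised counts than pan-endothelial genes in every WD_WD library and fewer in every CD_CD library. The part of a change in cell mixture in the results below was not tested beyond the fits relative to list means given further down.

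**Figure D2:**
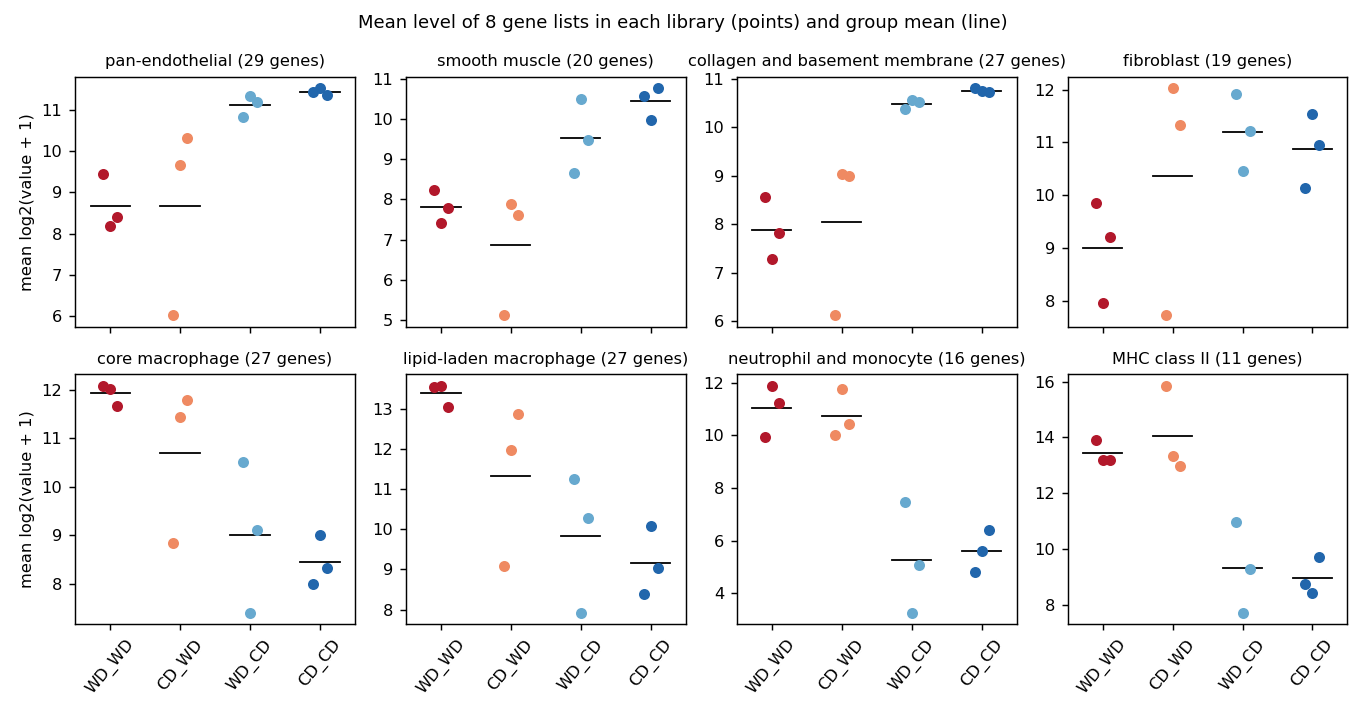
Each point is the mean log2(normalised count + 1) of a gene list in 1 library, for 8 lists and the 4 diet groups, and each line is the mean of 3 libraries. Pan-endothelial, smooth muscle and matrix genes are lower in all 3 WD_WD libraries than in all 3 CD_CD libraries, and macrophage, neutrophil and MHC class II genes are higher. CD_WD replicate 1 lies apart from its group except in the neutrophil list, where it lies close to replicate 3.

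Of 27 measured core macrophage genes 19 rose and 0 were called lower, with a median log2 fold change of 3.88. Fcer1g and Tyrobp, the signalling adaptors of myeloid receptors, led by p. Tyrobp had 88902, 83292 and 54399 in WD_WD, against 833, 893 and 822 in CD_CD. All 3 WD_WD libraries were far above all CD_CD libraries, and the CD_CD libraries were close to each other (log2 fold change 6.44 ± 0.75 SE, adjusted p = 0.000374). Lyz2, the lysozyme of macrophages and neutrophils, had 719905, 588993 and 417244 in WD_WD, against 8873, 17575 and 13514 in CD_CD, again without overlap (log2 fold change 5.45 ± 1.04 SE, adjusted p = 0.00363). Cd68, a lysosomal membrane protein of macrophages, had 38525, 45454 and 26022 in WD_WD, against 605, 1627 and 703 in CD_CD (log2 fold change 5.33 ± 1.08 SE, adjusted p = 0.00497). Spi1, which encodes the myeloid transcription factor PU.1, had 3866, 6763 and 2677 in WD_WD, against 219, 244 and 407 in CD_CD, so the groups did not overlap (log2 fold change 3.88 ± 0.51 SE, adjusted p = 0.000604). C1qb and C1qc, 2 chains of complement C1q made by macrophages, rose by 3.88 and 2.99 on the log2 scale. Adgre1, which encodes F4/80, rose by 1.75, Csf2ra by 4.01, Mpeg1 by 5.07 and Cx3cr1 by 3.05. Csf1r, the receptor for macrophage growth factor, did not pass, with 1241, 1750 and 1053 in WD_WD, against 501, 642 and 660 in CD_CD (log2 fold change 1.14 ± 0.74 SE, adjusted p = 0.281). Cd163, Mertk and Mrc1 stood below 0, with log2 fold changes of -4.07, -0.72 and -0.49 (adjusted p = 0.0599, 0.597 and 0.738). Without CD_CD replicate 1 the count of core macrophage calls was 11.

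Genes of lipid-laden macrophages, the foam cells of plaque, were called higher for 18 of 27 measured members, with a median of 4.04. Trem2, a lipid receptor of foam cells, had 13963, 8844 and 8786 in WD_WD, against 1.74, 294 and 41.0 in CD_CD. The 3 CD_CD libraries differed widely among themselves, from near 0 in replicate 1 to the highest level in replicate 2, and all lay below every WD_WD library (log2 fold change 8.31 ± 2.05 SE, adjusted p = 0.0132). Gpnmb, a glycoprotein of lysosome-rich macrophages, had 85347, 91343 and 49275 in WD_WD, against 133, 4931 and 245 in CD_CD (log2 fold change 7.06 ± 1.76 SE, adjusted p = 0.0138). Spp1, which encodes osteopontin, had 122261, 539967 and 223785 in WD_WD, against 852, 17059 and 150 in CD_CD (log2 fold change 7.56 ± 2.09 SE, adjusted p = 0.0218). In both genes CD_CD replicate 2 was the highest of its group, and the order of the WD_WD libraries differed between the genes. Fabp5, a fatty acid binding protein, was tighter within groups, with 113694, 112250 and 84435 in WD_WD, against 626, 1480 and 1180 in CD_CD (log2 fold change 6.63 ± 0.81 SE, adjusted p = 0.000426). Lgals3, which encodes galectin-3, rose by 7.11, Syngr1 by 8.02, Cd5l by 7.75, Plin2, a coat protein of lipid droplets, by 4.02 and Cstb, a cathepsin inhibitor, by 4.32. Not every gene of the list did so. Apoe, the apolipoprotein E of macrophages, had 803268, 11184 and 133580 in WD_WD, against 22941, 1889 and 37190 in CD_CD, and the range within each group was wider than the difference between them on the log2 scale (log2 fold change 3.18 ± 1.95 SE, adjusted p = 0.257). Cd36, a scavenger receptor also made by capillary endothelium and adipocytes, had 1616, 2146 and 1984 in WD_WD, against 9057, 2622 and 4785 in CD_CD and did not pass (log2 fold change -1.35 ± 0.57 SE, adjusted p = 0.106). Without CD_CD replicate 1 the list held 10 calls.

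Resident macrophages of the vessel wall carry another set of markers. Of 13 measured members Lyve1 was called lower, as were 10.4% of all genes, and the median over the list was -0.94. Lyve1, a hyaluronan receptor of resident macrophages and of lymphatic endothelium, had 208, 9.10 and 186 in WD_WD, against 2774, 894 and 1675 in CD_CD, with no overlap (log2 fold change -4.45 ± 1.07 SE, adjusted p = 0.0118). Mrc1, the mannose receptor, had 134, 240 and 990 in WD_WD, against 631, 453 and 308 in CD_CD, and the groups overlapped (log2 fold change -0.49 ± 0.94 SE, adjusted p = 0.738). Cd163, a haemoglobin scavenger receptor, had 180, 3.03 and 3.96 in WD_WD, against 631, 102 and 265 in CD_CD, where WD_WD replicates 2 and 3 stood at 2 reads and 1 read and replicate 1 overlapped with CD_CD (log2 fold change -4.07 ± 1.46 SE, adjusted p = 0.0599). Without CD_WD replicate 1 the list held 2 genes called higher and 4 lower, and without CD_WD replicate 3 it held 3 lower.

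Neutrophil and inflammatory monocyte genes held the largest rise among called genes with a mean of at least 100. Of 16 measured members 12 were called higher, with a median of 5.58. S100a8 and S100a9 encode the subunits of calprotectin, an abundant protein of neutrophils and monocytes. S100a8 lies on chr3:90668978-90670035 (GRCm38, GENCODE M21, plus strand). It had 7364, 131057 and 71440 in WD_WD, against 0.694, 31.1 and 56.8 in CD_CD, and WD_WD replicate 1 was the lowest of its group but far above every CD_CD library (log2 fold change 11.45 ± 1.57 SE, adjusted p = 0.000685). S100a9 had 3501, 34034 and 23349 in WD_WD, against 45.5, 22.1 and 16.6 in CD_CD, with the same order of the WD_WD libraries (log2 fold change 9.04 ± 1.38 SE, adjusted p = 0.00111). Plac8, a protein of myeloid cells and lymphocytes, was even within groups, with 6257, 5386 and 9491 in WD_WD, against 180, 211 and 458 in CD_CD (log2 fold change 4.71 ± 0.61 SE, adjusted p = 0.000599). Ly6c2, a surface mark of inflammatory monocytes, rose by 5.95, Retnlg by 5.08, Trem1 by 6.07, Il1r2, the decoy receptor of interleukin 1, by 7.94 and Csf3r, the receptor for G-CSF, by 5.23. Mmp9 and Lcn2, stored in neutrophil granules, did not pass, with log2 fold changes of 1.41 and 0.64 (adjusted p = 0.168 and 0.663). Of the 25 genes of the list, 9 such as Ly6g, Camp and Ltf were not in the table and were not analysed here.

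Promoters of genes named here were read from RefSeq promoter sequences of GRCm38.p6, 250 bases before to 50 after the start of a gene, on the gene's own strand, for 8585 of the tested genes. The sequence below is shown because S100a8 had the largest of these rises, and its capitals mark GAGGAAGT, the core bound by ETS-family factors such as PU.1, searched on both strands.
S100a8 promoter, chr3:90668821-90669120 (plus strand): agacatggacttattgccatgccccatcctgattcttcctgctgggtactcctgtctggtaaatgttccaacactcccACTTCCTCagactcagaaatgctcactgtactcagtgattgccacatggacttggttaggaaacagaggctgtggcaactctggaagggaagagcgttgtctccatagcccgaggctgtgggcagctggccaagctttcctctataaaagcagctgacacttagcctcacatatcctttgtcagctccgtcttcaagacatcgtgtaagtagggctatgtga
GAGGAAGT stood in 3.42% of all 8585 promoters, in 62 of 1120 promoters of genes called higher (5.54%) and in 28 of 880 promoters of genes called lower (3.18%). These shares describe letters in a window of 300 bases, and no factor was measured on them.

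Inflammatory cytokines and chemokines rose in 15 of 25 measured genes, with a median of 4.80. Ccl5, a chemokine of T cells and macrophages, was even within groups, with 3290, 3148 and 1952 in WD_WD, against 46.1, 67.8 and 53.1 in CD_CD (log2 fold change 5.61 ± 0.51 SE, adjusted p = 0.000144). Il1b, the interleukin 1 beta of activated macrophages, had 16314, 50768 and 17192 in WD_WD, against 266, 667 and 90.9 in CD_CD, with WD_WD replicate 2 highest and no overlap (log2 fold change 6.58 ± 1.15 SE, adjusted p = 0.00224). Ccl2, which draws monocytes into the wall and can come from endothelium or macrophages, had 11636, 32188 and 12247 in WD_WD, against 583, 646 and 263 in CD_CD (log2 fold change 5.16 ± 0.98 SE, adjusted p = 0.00353). Irg1 (Acod1), which makes itaconate in activated macrophages, had 691, 6744 and 2352 in WD_WD, against 0, 0 and 7.30 in CD_CD, so that 2 of the 3 CD_CD libraries held 0 reads (log2 fold change 10.10 ± 1.49 SE, adjusted p = 0.000942). Cxcl2 rose by 4.92, Ccl3 by 5.80, Ccl4 by 8.07, Ccl7 by 5.31, Tnf by 4.02, Il1a by 8.18, Osm by 7.90 and Nlrp3, the inflammasome sensor, by 6.58. Il6 and Cxcl1 did not pass, with log2 fold changes of 0.35 and 1.16 (adjusted p = 0.822 and 0.396). Among 10 chemokine receptors 6 were called higher, led by Cxcr4, with 375, 648 and 657 in WD_WD, against 4.16, 5.72 and 30.0 in CD_CD (log2 fold change 5.73 ± 0.81 SE, adjusted p = 0.000766). Ccr7, a receptor of mature dendritic cells and naive T cells, rose by 4.92, Ccr1 by 6.49 and C5ar1, the receptor for complement C5a, by 2.87.

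A list of NF-kB subunits, their kinases, inhibitors and feedback targets was called higher for 10 of 19 members, with a median of 1.69 that stood at 0.30 under total count scaling. Tnfaip3, which encodes the inhibitor A20, had 1711, 2505 and 1825 in WD_WD, against 563, 1065 and 310 in CD_CD (log2 fold change 1.80 ± 0.40 SE, adjusted p = 0.00787). Nfkbia, the main IkB inhibitor, had 21913, 49517 and 25424 in WD_WD, against 11954, 11126 and 9077 in CD_CD, without overlap (log2 fold change 1.50 ± 0.46 SE, adjusted p = 0.0322). Rela, the subunit that carries most of the activity, had 943, 1133 and 491 in WD_WD, against 841, 1393 and 1019 in CD_CD and overlapped (log2 fold change -0.40 ± 0.39 SE, adjusted p = 0.494). Of 21 genes of innate sensing 6 were called higher, among them Tlr2, which rose by 2.78, Cd14 by 4.03 and Pycard by 2.91. Tlr4, the receptor for endotoxin, had 48.8, 114 and 47.5 in WD_WD, against 213, 210 and 119 in CD_CD and did not pass (log2 fold change -1.43 ± 0.63 SE, adjusted p = 0.117). The NF-kB count was 5 without CD_CD replicate 1 and 6 without CD_CD replicate 2, CD_CD replicate 3 or WD_WD replicate 2, and the innate sensing count was 3 without CD_CD replicate 2 or WD_WD replicate 2.

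MHC class II genes present peptides of swallowed protein to T cells. Of 11 measured members 8 were called higher, with a median of 4.58, and the same count of 8 was found without any 1 of the 6 libraries of WD_WD and CD_CD. H2-Aa, the alpha chain of I-A, had 87178, 49323 and 51513 in WD_WD, against 1278, 1427 and 3098 in CD_CD. The WD_WD libraries lay far above all CD_CD libraries, of which replicate 3 was highest (log2 fold change 5.08 ± 0.82 SE, adjusted p = 0.00151). H2-Ab1, its beta chain, had 222262, 133296 and 87100 in WD_WD, against 2673, 3017 and 6457 in CD_CD (log2 fold change 5.20 ± 0.88 SE, adjusted p = 0.00202), and Cd74, the invariant chain, had 536939, 353906 and 186348 in WD_WD, against 8744, 7015 and 14760 in CD_CD (log2 fold change 5.08 ± 0.91 SE, adjusted p = 0.00258). H2-Eb1, H2-DMa, H2-DMb1 and H2-Oa rose by 4.58, 3.76, 3.38 and 5.68. Ciita, the coactivator that switches these genes on, had 943, 625 and 206 in WD_WD, against 37.1, 105 and 181 in CD_CD, without overlap but with a wide spread (log2 fold change 2.46 ± 1.27 SE, adjusted p = 0.178). The promoters of H2-Aa and H2-Eb1 are shown because genes of this list moved together; capitals mark CTGATTGG, the Y box bound by NF-Y, searched on both strands.
H2-Aa promoter, chr17:34287774-34288073 (minus strand): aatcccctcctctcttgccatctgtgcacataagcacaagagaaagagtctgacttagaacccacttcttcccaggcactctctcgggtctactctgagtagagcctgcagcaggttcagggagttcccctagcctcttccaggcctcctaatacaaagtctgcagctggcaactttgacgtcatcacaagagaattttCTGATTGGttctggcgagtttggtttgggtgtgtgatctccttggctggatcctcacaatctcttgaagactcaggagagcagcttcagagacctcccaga
H2-Eb1 promoter, chr17:34305617-34305916 (plus strand): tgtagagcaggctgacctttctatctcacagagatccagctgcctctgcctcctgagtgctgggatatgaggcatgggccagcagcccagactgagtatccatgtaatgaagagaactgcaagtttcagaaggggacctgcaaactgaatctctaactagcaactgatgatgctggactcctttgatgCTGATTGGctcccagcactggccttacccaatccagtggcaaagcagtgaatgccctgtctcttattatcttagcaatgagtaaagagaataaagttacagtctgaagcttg
CTGATTGG stood in 3 of 8 promoters of this list, those of H2-Aa, H2-Eb1 and H2-Oa, and in 5.71% of all promoters. Other lists ran from 0 of 24 interferon-induced promoters to 8 of 16 promoters of heat shock and unfolded protein genes. MHC class I genes had 5 of 13 and cholesterol synthesis genes 5 of 16, so CTGATTGG was not particular to MHC class II genes. In H2-Aa it began 51 bases before the start site and in H2-Eb1 62 bases before it.

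Receptors for antibody and for phagocytosis were called higher in 9 of 16 members, with a median of 3.81. Fcgr3 had 8965, 12644 and 5805 in WD_WD, against 1034, 796 and 897 in CD_CD (log2 fold change 3.27 ± 0.94 SE, adjusted p = 0.0259), and Fcgr4 had 1035, 2849 and 2372 in WD_WD, against 0, 51.9 and 19.5 in CD_CD, with 0 reads in CD_CD replicate 1 (log2 fold change 7.54 ± 2.04 SE, adjusted p = 0.02). Axl and Mertk, receptors for dying cells, did not pass, with log2 fold changes of 0.45 and -0.72 (adjusted p = 0.687 and 0.597). Of 15 genes of MHC class I and the immunoproteasome, which trims peptides for it, 6 were called higher and 1 lower, with a median of 1.16 that stood at -0.25 under total count scaling. Psmb8 had 9676, 5861 and 7543 in WD_WD, against 1377, 1802 and 2076 in CD_CD (log2 fold change 2.12 ± 0.55 SE, adjusted p = 0.0158). B2m, the light chain of class I, had 132731, 72771 and 76330 in WD_WD, against 18046, 25869 and 21268 in CD_CD (log2 fold change 2.07 ± 0.61 SE, adjusted p = 0.0282). Erap1, a peptide trimming enzyme, had 213, 130 and 257 in WD_WD, against 574, 718 and 426 in CD_CD and fell (log2 fold change -1.53 ± 0.39 SE, adjusted p = 0.0156). The Fc receptor count was 5 without CD_CD replicate 1 or WD_WD replicate 2. The class I list held 2 genes called higher and 0 lower once the trend on exon length was removed (described below), and the log2 fold change of Erap1 was then -1.07 (adjusted p = 0.0716). The class I count was 1, 2 and 3 without CD_CD replicates 1, 2 and 3, and 3 without WD_WD replicate 1.

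Interferon-induced genes were mixed: 7 of 29 were called higher and 1 lower, and the median of 1.07 stood at -0.34 under total count scaling. Ifitm1 had 2132, 9006 and 2795 in WD_WD, against 6.25, 53.9 and 45.4 in CD_CD (log2 fold change 7.16 ± 0.92 SE, adjusted p = 0.000599). Zbp1, a sensor of nucleic acid, had 773, 826 and 1033 in WD_WD, against 87.4, 127 and 61.3 in CD_CD, without overlap (log2 fold change 3.29 ± 0.46 SE, adjusted p = 0.000688). Gbp7, a guanylate binding protein, had 259, 221 and 273 in WD_WD, against 651, 719 and 622 in CD_CD and fell (log2 fold change -1.40 ± 0.41 SE, adjusted p = 0.0266). Ifit1, Ifit3 and Irf1 did not pass, with log2 fold changes of 1.22, 0.54 and 0.45. Among 15 complement genes 4 were called higher and 2 lower. Cfp, properdin of myeloid cells, had 7010, 10013 and 3302 in WD_WD, against 838, 706 and 1026 in CD_CD (log2 fold change 2.86 ± 0.62 SE, adjusted p = 0.00716). The interferon count was 4 without any 1 of the CD_CD libraries or without WD_WD replicate 3. The count of complement genes called higher was 1 without CD_CD replicate 1 or 2 and 2 without CD_CD replicate 3, WD_WD replicate 1 or WD_WD replicate 2.

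Lysosomal enzymes and the proton pump that acidifies the lysosome were higher as well. Of 31 hydrolases and related genes 16 were called higher, with a median of 1.75 that stood at 0.34 under total count scaling. Ctss, the cathepsin that cuts the invariant chain, had 114984, 119687 and 70997 in WD_WD, against 1017, 3736 and 1215 in CD_CD (log2 fold change 5.90 ± 1.00 SE, adjusted p = 0.00202). Ctsz had 40053, 56784 and 30325 in WD_WD, against 2798, 4178 and 4123 in CD_CD, without overlap (log2 fold change 3.49 ± 0.48 SE, adjusted p = 0.000688). Ctsb, Ctsd and Ctsl, the common cathepsins, rose by 4.47, 3.66 and 3.12, and Psap, which feeds the enzymes of sphingolipid breakdown, rose by 3.03. Npc1 and Npc2, which carry cholesterol out of the lysosome, rose by 1.75 and 2.33, and Lipa, the acid lipase that frees it, by 1.91. Lamp1 and Lamp2, the membrane proteins of every lysosome, did not pass, with log2 fold changes of 0.78 and 0.33 (adjusted p = 0.265 and 0.725). Among 16 subunits of the V-ATPase pump 13 were called higher, with a median of 2.30. Atp6v1g1 had 8787, 9774 and 7056 in WD_WD, against 1786, 1526 and 1787 in CD_CD (log2 fold change 2.32 ± 0.27 SE, adjusted p = 0.000374). Atp6v0e had 14975, 11049 and 14575 in WD_WD, against 2736, 2299 and 2934 in CD_CD (log2 fold change 2.34 ± 0.30 SE, adjusted p = 0.000599). Both were even within each group and did not overlap. Atp6v0d2, the subunit of macrophages and osteoclasts, had 4331, 5333 and 4193 in WD_WD, against 0, 228 and 16.2 in CD_CD (log2 fold change 8.18 ± 2.08 SE, adjusted p = 0.015). Without CD_CD replicate 1 the hydrolase count was 8 and the pump count 8. The hydrolase count was 9 without CD_CD replicate 3 or WD_WD replicate 2, and 10 without WD_WD replicate 1.

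The promoters of Ctsd and Atp6v0e are shown because both lists moved up; capitals mark TCACGTGA, the palindrome bound by TFEB and other MiT factors that control lysosomal genes, and which reads the same on both strands. It holds the E box CACGTG.
Ctsd promoter, chr7:142387778-142388077 (minus strand): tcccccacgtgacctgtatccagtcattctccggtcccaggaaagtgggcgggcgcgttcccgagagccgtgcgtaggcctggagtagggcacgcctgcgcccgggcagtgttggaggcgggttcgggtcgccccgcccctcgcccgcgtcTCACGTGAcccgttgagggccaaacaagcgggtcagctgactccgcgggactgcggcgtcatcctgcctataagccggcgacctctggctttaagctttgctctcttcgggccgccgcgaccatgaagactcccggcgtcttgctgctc
Atp6v0e promoter, chr17:26676146-26676445 (plus strand): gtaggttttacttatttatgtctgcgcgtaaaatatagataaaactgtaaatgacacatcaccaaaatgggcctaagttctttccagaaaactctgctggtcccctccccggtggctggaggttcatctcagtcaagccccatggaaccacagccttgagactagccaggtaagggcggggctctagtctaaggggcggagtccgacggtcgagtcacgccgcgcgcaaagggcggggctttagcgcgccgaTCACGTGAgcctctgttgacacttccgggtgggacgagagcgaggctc
TCACGTGA stood in 3 of 11 V-ATPase promoters (27.3%), those of Atp6v0d1, Atp6v0e and Atp6v1a, in 1 of 24 hydrolase promoters, that of Ctsd, and in 2.13% of all promoters. The same motif stood in 2.23% of promoters of genes called higher and in 2.05% of those called lower. Among other lists it stood in 3 of 31 chromatin modifier promoters (9.68%). CACGTG stood in 4 of 11 V-ATPase promoters, 6 of 24 hydrolase promoters (25.0%) and 10.4% of all promoters. Other lists ran from 0 of 24 interferon-induced promoters to 4 of 12 clock gene promoters (33.3%). Immediate-early genes had 5 of 17 (29.4%), so CACGTG was not particular to lysosomal genes. Of the genes that hold the longer motif, Atp6v0d1 rose by 1.26, with -0.16 under total count scaling, and Atp6v1a did not pass (log2 fold change 0.80, adjusted p = 0.255).

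Genes of cholesterol export and its receptor LXR were called higher in 8 of 19 members and lower in 2, with a median of 1.62 that stood at 0.20 under total count scaling. Soat1, which stores cholesterol as ester, had 678, 1301 and 1501 in WD_WD, against 191, 320 and 85.6 in CD_CD (log2 fold change 2.65 ± 0.55 SE, adjusted p = 0.00555). Abcg1, a cholesterol exporter, had 3213, 6876 and 3203 in WD_WD, against 901, 1915 and 1290 in CD_CD (log2 fold change 1.66 ± 0.51 SE, adjusted p = 0.0345), whereas Abca1, its partner, had 1831, 2760 and 1326 in WD_WD, against 1042, 1361 and 876 in CD_CD and overlapped (log2 fold change 0.81 ± 0.40 SE, adjusted p = 0.16). Nr1h3, which encodes LXR alpha, had 519, 1322 and 689 in WD_WD, against 286, 131 and 214 in CD_CD and rose (log2 fold change 1.95 ± 0.66 SE, adjusted p = 0.0478). Scd2 and Mylip fell, with log2 fold changes of -1.58 and -1.53. Of 23 genes of cholesterol synthesis under SREBP2 control, 1 was called, in the lower direction. It was Scap, the escort of SREBP proteins, with 162, 91.0 and 79.2 in WD_WD, against 369, 323 and 379 in CD_CD (log2 fold change -1.75 ± 0.52 SE, adjusted p = 0.029). In the fatty acid list 3 of 27 were called higher and 2 lower, against 13.0% and 10.4% of all genes. Hilpda, an inhibitor of lipid droplet breakdown, was even within groups, with 4282, 7998 and 4351 in WD_WD, against 170, 288 and 208 in CD_CD (log2 fold change 4.61 ± 0.41 SE, adjusted p = 0.000142). Cpt1a, which admits fatty acids to mitochondria, had 457, 165 and 150 in WD_WD, against 980, 871 and 773 in CD_CD and fell (log2 fold change -1.95 ± 0.43 SE, adjusted p = 0.00733). Gpihbp1, the endothelial anchor of lipoprotein lipase, had 568, 159 and 467 in WD_WD, against 3573, 749 and 4699 in CD_CD and fell (log2 fold change -2.73 ± 0.78 SE, adjusted p = 0.0248). The fatty acid list held 4 genes called lower without CD_CD replicate 2, and 5 called higher and 4 lower without CD_WD replicate 1. The count of LXR genes called higher was 3, 5 and 4 without CD_CD replicates 1, 2 and 3, and 5, 4 and 4 without WD_WD replicates 1, 2 and 3.

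Iron storage genes were among the most abundant in WD_WD libraries. Ftl1, the ferritin light chain, had 1782663, 1457068 and 1068804 in WD_WD, against 30781, 40164 and 33819 in CD_CD (log2 fold change 5.34 ± 0.87 SE, adjusted p = 0.00163). Fth1, the heavy chain, had 988867, 818475 and 508830 in WD_WD, against 28941, 38022 and 42383 in CD_CD (log2 fold change 4.37 ± 0.76 SE, adjusted p = 0.00224). Neither gene overlapped between groups. In the list of 18 genes of iron and haem handling 9 were called higher and 2 lower, with a median of 1.50 that stood at 0.09 under total count scaling. Hmox1, which breaks down haem, rose by 2.89, Slc40a1, the iron exporter ferroportin, by 3.02 and Slc11a1, a metal transporter of phagosomes, by 3.54. Cp, the ferroxidase ceruloplasmin, had 614, 748 and 416 in WD_WD, against 2914, 3667 and 3156 in CD_CD and fell (log2 fold change -2.49 ± 0.66 SE, adjusted p = 0.0185). Tfrc, the transferrin receptor, had 121, 278 and 206 in WD_WD, against 73.2, 27.4 and 47.5 in CD_CD and did not pass (log2 fold change 2.03 ± 0.80 SE, adjusted p = 0.0832).

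Among 20 antioxidant genes of the NRF2 pathway 9 were called higher and 1 lower, with a median of 1.30 that stood at -0.11 under total count scaling. Gpx1, a peroxidase, had 132446, 103978 and 80080 in WD_WD, against 7486, 9550 and 10324 in CD_CD (log2 fold change 3.52 ± 0.42 SE, adjusted p = 0.00042). Prdx1 rose by 2.24, Sod2 by 2.32 and Slc7a11, the cystine importer, by 5.34. Nqo1, a standard target of NRF2, had 95.0, 45.5 and 15.8 in WD_WD, against 289, 204 and 209 in CD_CD and fell (log2 fold change -2.46 ± 0.80 SE, adjusted p = 0.0434), and Gclm, another, had 170, 271 and 447 in WD_WD, against 654, 508 and 601 in CD_CD (log2 fold change -1.09 ± 0.57 SE, adjusted p = 0.187). Of 24 genes of glycolysis and hypoxia 6 were called higher, with a median of 0.61 that stood at -0.80 under total count scaling. Hk2, a hexokinase, had 1813, 1709 and 2653 in WD_WD, against 97.8, 258 and 146 in CD_CD (log2 fold change 3.70 ± 0.44 SE, adjusted p = 0.000385). Hif1a did not pass, with a log2 fold change of 0.17 (adjusted p = 0.813). The NRF2 count was 5 without CD_CD replicate 1, CD_CD replicate 2 or WD_WD replicate 2, and the glycolysis count was 3 without WD_WD replicate 2.

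Markers of other cells that such a preparation can hold were listed as well. B cell genes were called higher in 4 of 9 members and T and NK cell genes in 7 of 16, with medians of 4.29 and 3.88. Jchain, the joining chain of plasma cells, had 835, 924 and 736 in WD_WD, against 0.347, 0.409 and 84.4 in CD_CD (log2 fold change 7.25 ± 1.53 SE, adjusted p = 0.00621). Cd79a, part of the B cell receptor, had 9460, 2499 and 7582 in WD_WD, against 299, 46.6 and 1694 in CD_CD; CD_CD replicate 3 was the highest of its group, near the lowest WD_WD library (log2 fold change 4.29 ± 1.57 SE, adjusted p = 0.0645). Nkg7, a granule protein of cytotoxic cells, had 3062, 1386 and 3116 in WD_WD, against 75.3, 31.1 and 51.5 in CD_CD (log2 fold change 5.55 ± 1.12 SE, adjusted p = 0.00486). Cd3d and Cd3e, chains of the T cell receptor complex, did not pass, with log2 fold changes of 3.65 and 4.11 (adjusted p = 0.139 and 0.0599). Of 13 dendritic cell genes Irf8 and Ccr7 were called higher, as were 13.0% of all genes. Zbtb46, the factor that marks conventional dendritic cells, had 48.8, 84.9 and 59.4 in WD_WD, against 106, 45.0 and 75.9 in CD_CD (log2 fold change -0.18 ± 0.72 SE, adjusted p = 0.881). The B cell count was 1 without CD_CD replicate 1, CD_CD replicate 2, WD_WD replicate 1 or WD_WD replicate 3, and 2 without WD_WD replicate 2. The T and NK count was 4 without CD_CD replicate 1 and 11 without CD_WD replicate 1, and the dendritic cell count was 4 without WD_CD replicate 1 and 5 without WD_CD replicate 2.

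Other tissues gave less even values. Alas2, the haem synthesis enzyme of red cell precursors, had 2217, 1574 and 12801 in WD_WD, against 249, 120 and 996 in CD_CD, highest in replicate 3 of both groups (log2 fold change 3.51 ± 1.25 SE, adjusted p = 0.0582). Of 11 adipocyte genes 0 were called in limma, edgeR or DESeq2, and 0 had an unadjusted p under 0.05 in limma. Adipoq, the adipocyte hormone, had 89.9, 34.9 and 107 in WD_WD, against 0, 24.5 and 226 in CD_CD. Of 15 striated muscle genes 3 were called higher, of which Tnni2, a troponin of fast muscle, had 994, 513 and 919 in WD_WD, against 8.33, 0 and 206 in CD_CD (log2 fold change 5.96 ± 1.91 SE, adjusted p = 0.0394). That list held 1 call without CD_CD replicate 1 or 2 or without any 1 of the WD_WD libraries. Mast cell proteases such as Tpsb2 had 1143, 0 and 444 in WD_WD, against 2976, 259 and 2566 in CD_CD, at 0 reads in WD_WD replicate 2, and did not pass (log2 fold change -3.98 ± 2.01 SE, adjusted p = 0.17). Hdc, which makes histamine in mast cells and neutrophils, had 586, 6964 and 1893 in WD_WD, against 435, 123 and 195 in CD_CD and rose (log2 fold change 3.17 ± 0.87 SE, adjusted p = 0.0209). Of the nerve and glial list, 4 of 11 genes were measured, and Ncam1 and Mbp fell, with log2 fold changes of -4.60 and -2.33.

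Pan-endothelial genes fell. Of 29 measured members 16 were called lower, with a median of -2.78, and in 27 members all WD_WD libraries were below all CD_CD libraries, which held for 22.0% of all genes. Ptprb, the phosphatase VE-PTP of endothelial junctions, led the list. It had 645, 350 and 325 in WD_WD, against 11333, 11976 and 10415 in CD_CD, with the CD_CD libraries close together and far above (log2 fold change -4.74 ± 0.75 SE, adjusted p = 0.0013). Cdh5, which encodes VE-cadherin, had 303, 53.1 and 111 in WD_WD, against 2190, 1924 and 2493 in CD_CD (log2 fold change -4.16 ± 0.78 SE, adjusted p = 0.00333). Tie1 had 706, 256 and 337 in WD_WD, against 2590, 4712 and 3491 in CD_CD (log2 fold change -3.15 ± 0.81 SE, adjusted p = 0.0158). For Pecam1 and Vwf, whose values stand above, the log2 fold changes were -2.78 ± 0.66 and -3.70 ± 1.02 SE (adjusted p = 0.0111 and 0.0214). Erg and Sox18, transcription factors of endothelial identity, fell, with log2 fold changes of -2.71 and -3.47, and so did Eng, Robo4 and Icam2, with -2.87, -5.07 and -1.59. Tek, the angiopoietin receptor TIE2, had 460, 403 and 527 in WD_WD, against 3595, 3436 and 2718 in CD_CD and missed the threshold without overlap (log2 fold change -2.81 ± 0.99 SE, adjusted p = 0.057). Emcn and Ecscr overlapped between groups, with log2 fold changes of -1.25 and -0.83 (adjusted p = 0.401 and 0.575). The count of 16 was 6, 5 and 9 without CD_CD replicates 1, 2 and 3, 9 without WD_WD replicate 2 or 3, and 26 without CD_WD replicate 1.

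**Figure D3:**
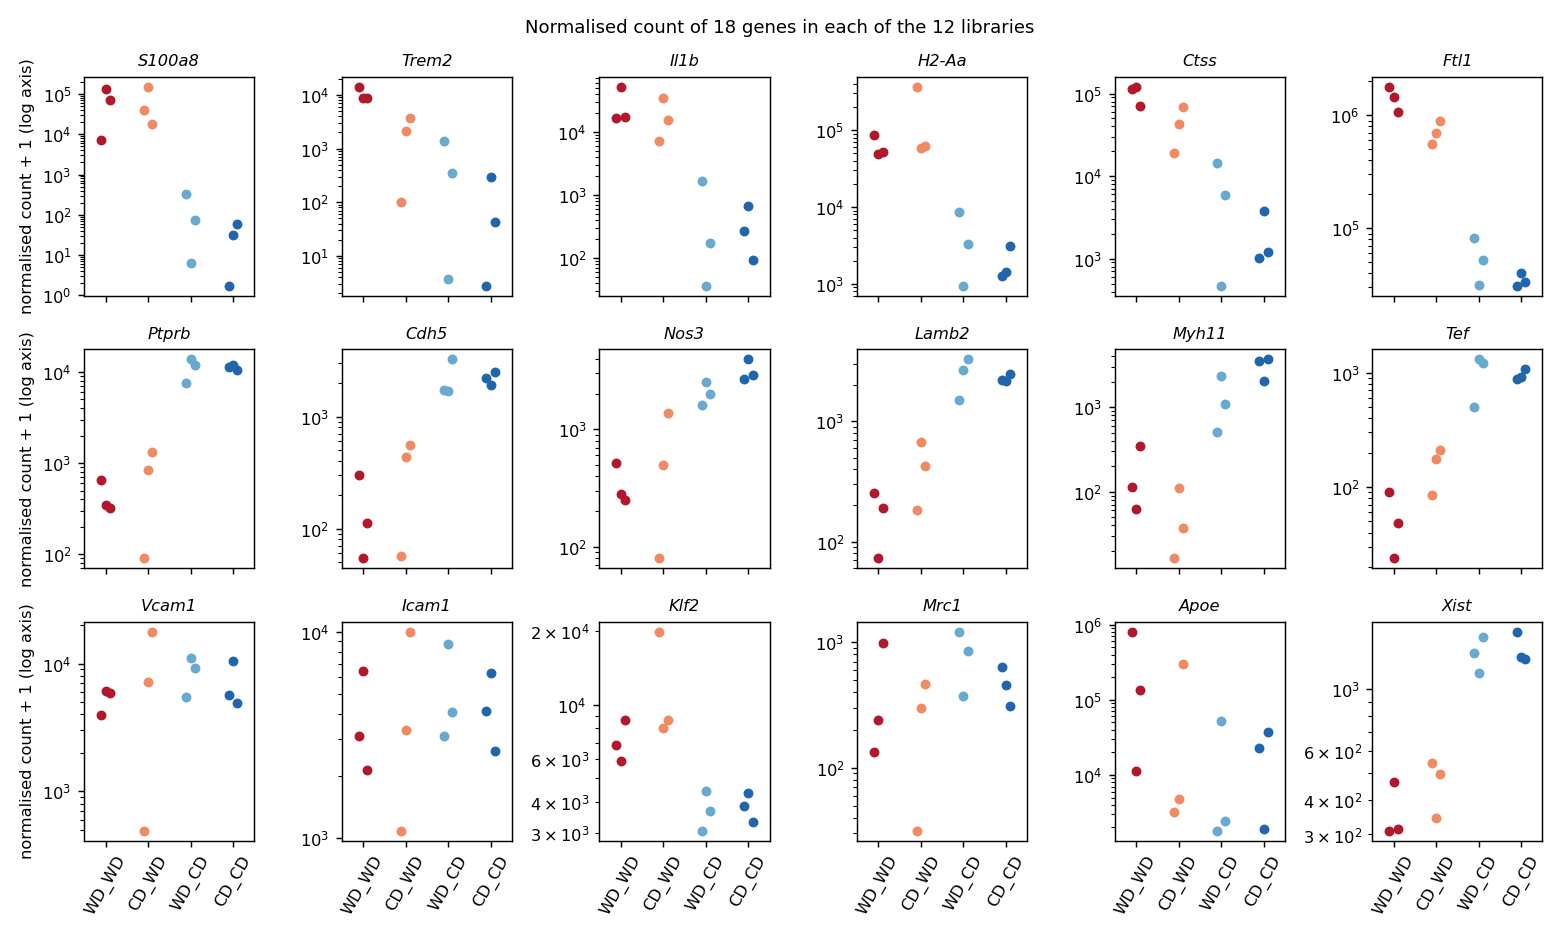
Each point is the normalised count plus 1 of a gene in 1 library, on a log axis, for 18 genes and the 4 diet groups. S100a8, Trem2, Il1b, H2-Aa, Ctss and Ftl1 are higher in every WD_WD library than in every CD_CD library, Ptprb, Cdh5, Nos3, Lamb2, Myh11, Tef and Xist are lower, and Vcam1, Icam1, Mrc1 and Apoe overlap.

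Junction genes were called lower in 10 of 17 members, with a median of -2.31. Ctnnb1 and Ctnna1, the catenins that tie cadherins to actin, had log2 fold changes of -1.83 and -1.79 (adjusted p = 0.00592 and 0.0212). Tjp1, which encodes ZO-1, had 48.8, 53.1 and 135 in WD_WD, against 427, 502 and 375 in CD_CD (log2 fold change -2.60 ± 0.66 SE, adjusted p = 0.0146). Gja1, connexin 43, had 61.6, 44.0 and 63.4 in WD_WD, against 600, 434 and 386 in CD_CD (log2 fold change -3.04 ± 0.66 SE, adjusted p = 0.00716), and Gja4, connexin 37, had 1798, 1165 and 515 in WD_WD, against 3090, 2500 and 2991 in CD_CD and did not pass (log2 fold change -1.47 ± 1.17 SE, adjusted p = 0.382). Cldn5, the tight junction protein claudin 5, had 1996, 957 and 796 in WD_WD, against 5748, 5520 and 6495 in CD_CD, without overlap (log2 fold change -2.36 ± 0.86 SE, adjusted p = 0.0641). The count was 6 without CD_CD replicate 1 or 2.

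Arterial and Notch genes were called lower in 6 of 16 members and higher in 1. Jag1, a Notch ligand, had 46.2, 62.2 and 59.4 in WD_WD, against 676, 797 and 827 in CD_CD, with narrow spread in both groups (log2 fold change -3.76 ± 0.55 SE, adjusted p = 0.00092). Notch1 and Notch4, the endothelial receptors, fell, with log2 fold changes of -3.11 and -2.99, and so did Efnb2, the ephrin of arteries, with -4.14. Hes1, a target of Notch in many cells, had 2291, 2595 and 2629 in WD_WD, against 3413, 1541 and 1607 in CD_CD and overlapped (log2 fold change 0.29 ± 0.42 SE, adjusted p = 0.645). The member called higher was Cxcr4, which leukocytes also make. Of 13 VEGF and angiopoietin genes 6 were called lower; Kdr, the main VEGF receptor, had 126, 65.2 and 317 in WD_WD, against 1086, 468 and 948 in CD_CD (log2 fold change -2.50 ± 0.73 SE, adjusted p = 0.0283), and Vegfa, the ligand, had 347, 502 and 447 in WD_WD, against 141, 348 and 56.0 in CD_CD and overlapped (log2 fold change 1.60 ± 0.67 SE, adjusted p = 0.102). Venous and lymphatic genes were called lower in 4 of 8, among them Ephb4, with 97.6, 31.9 and 27.7 in WD_WD, against 1509, 786 and 651 in CD_CD (log2 fold change -4.34 ± 0.62 SE, adjusted p = 0.000798), and Flt4, which fell (log2 fold change -2.95). The arterial count was 11 without CD_WD replicate 1, and the VEGF count was 3 without CD_CD replicate 1. The venous and lymphatic count was 2 without CD_CD replicate 1.

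TGF-beta and BMP genes were called lower in 11 of 24 members and higher in 1, with a median of -2.44. Bmpr2, a BMP receptor of endothelium, had 134, 37.9 and 119 in WD_WD, against 1932, 1778 and 1053 in CD_CD (log2 fold change -4.17 ± 0.77 SE, adjusted p = 0.00322). Bmp6, a BMP made by endothelium, had 224, 100 and 83.2 in WD_WD, against 1728, 3219 and 1630 in CD_CD (log2 fold change -4.07 ± 0.78 SE, adjusted p = 0.00363). Smad1 and Smad5, which carry BMP signals to the nucleus, fell, with log2 fold changes of -2.78 and -2.42, and so did Tgfbr2, with -1.71. Id1 and Id3, targets of BMP signals, did not pass, with log2 fold changes of -2.10 and -1.39 (adjusted p = 0.0684 and 0.0559). Id2, a related factor that leukocytes also express, had 13308, 14511 and 11411 in WD_WD, against 3475, 2444 and 2745 in CD_CD and rose (log2 fold change 2.19 ± 0.29 SE, adjusted p = 0.000629). In the list of genes of endothelial to mesenchymal transition 1 of 8 was called higher and 2 lower, against 13.0% and 10.4% of all genes. S100a4, also made by leukocytes, had 17441, 18912 and 12710 in WD_WD, against 878, 1561 and 1236 in CD_CD (log2 fold change 3.76 ± 0.43 SE, adjusted p = 0.000341), whereas Fn1, which encodes fibronectin, had 1022, 666 and 1279 in WD_WD, against 6135, 7483 and 5740 in CD_CD (log2 fold change -2.75 ± 0.56 SE, adjusted p = 0.00535), and Tagln fell (log2 fold change -3.19). Zeb1, a repressor of epithelial genes, and Vim, an intermediate filament of mesenchymal cells, did not pass, with log2 fold changes of -1.45 and -0.41. The TGF-beta and BMP count was 6 without CD_CD replicate 1 and 7 without CD_CD replicate 2.

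Genes that laminar flow sustains were called lower in 5 of 16 members and higher in 1. Nos3, the endothelial nitric oxide synthase, had 514, 279 and 249 in WD_WD, against 2689, 3933 and 2871 in CD_CD. All WD_WD libraries lay below all CD_CD libraries (log2 fold change -3.24 ± 0.75 SE, adjusted p = 0.00993). Klf4, a flow-induced factor, had 357, 604 and 162 in WD_WD, against 1779, 1799 and 1695 in CD_CD (log2 fold change -2.42 ± 0.60 SE, adjusted p = 0.0133). Klf2, its relative that leukocytes also express, had 6858, 5902 and 8647 in WD_WD, against 3839, 4345 and 3299 in CD_CD; the WD_WD libraries were higher without overlap and the difference did not pass (log2 fold change 0.89 ± 0.38 SE, adjusted p = 0.104). Thbd, thrombomodulin, Aqp1, a water channel, and Cyp1b1 fell, with log2 fold changes of -2.37, -3.07 and -5.01, while Nfe2l2, which encodes NRF2, rose by 1.30, with -0.12 under total count scaling. Ptgis, Dll4, Slco2a1, Edn1 and Mapk7 did not pass, with log2 fold changes of -3.17, -2.61, -2.02, -1.49 and -2.42; those of Piezo1, Nostrin, Prkch and Map2k5 were 0.90, 1.26, -0.59 and -0.46. Of 12 coagulation genes 3 were called lower, Thbd, Vwf and Ptgs1, the cyclooxygenase that feeds prostacyclin synthesis. Without CD_WD replicate 1 the flow list held 9 genes called lower, and the coagulation list held 1 without CD_CD replicate 1 or 3, WD_WD replicate 2 or WD_WD replicate 3, 0 without CD_CD replicate 2 and 5 without CD_WD replicate 1.

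Adhesion molecules, which capture leukocytes on inflamed endothelium, were called higher in 1 of 13 members and lower in 4. Vcam1 had 3963, 6127 and 5927 in WD_WD, against 5706, 10556 and 4915 in CD_CD, and the groups overlapped (log2 fold change -0.35 ± 0.95 SE, adjusted p = 0.822). Icam1 had 3111, 6460 and 2126 in WD_WD, against 4106, 6319 and 2645 in CD_CD, also with overlap (log2 fold change -0.23 ± 0.71 SE, adjusted p = 0.845). Sele, the E-selectin that cytokines induce, had 218, 1509 and 1623 in WD_WD, against 447, 1251 and 162 in CD_CD (log2 fold change 0.85 ± 1.22 SE, adjusted p = 0.643), and Selp, P-selectin, had 658, 1369 and 1192 in WD_WD, against 1633, 3077 and 1299 in CD_CD (log2 fold change -0.87 ± 0.94 SE, adjusted p = 0.534). None of these 4 passed the test, and in each the groups overlapped. The member called higher was Ccl2, given above. Those called lower were Jam2, Pecam1, Cd99l2 and Icam2, with log2 fold changes of -3.24, -2.78, -2.55 and -1.59. Cx3cl1, Esam, F11r and Jam3 did not pass, with log2 fold changes of -2.64, -1.51, -1.10 and -0.55. Without CD_CD replicate 2 the list held 2 genes called lower, and without CD_WD replicate 1 it held 7.

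Immediate-early genes of the AP-1 group, which tissue dissociation also induces, had a median of 0.75 that stood at -0.66 under total count scaling. Against 13.0% of all genes, 2 of the 21 members were called higher. These were Batf, an AP-1 partner of lymphocytes and myeloid cells, with 1338, 957 and 558 in WD_WD, against 134, 121 and 72.6 in CD_CD (log2 fold change 3.07 ± 0.52 SE, adjusted p = 0.00202), and Dusp1, a phosphatase of MAP kinases, with 32044, 79123 and 41911 in WD_WD, against 19906, 16988 and 12561 in CD_CD (log2 fold change 1.55 ± 0.50 SE, adjusted p = 0.0424). Jun had 11690, 23305 and 13126 in WD_WD, against 11582, 10982 and 6207 in CD_CD, above all CD_CD libraries and short of the threshold (log2 fold change 0.73 ± 0.40 SE, adjusted p = 0.204). Fos had 43809, 71354 and 44481 in WD_WD, against 45278, 46708 and 16964 in CD_CD and overlapped (log2 fold change 0.65 ± 0.63 SE, adjusted p = 0.48). Junb, Jund, Fosb, Fosl1, Fosl2 and Atf3 had log2 fold changes of 0.34, 1.16, -0.84, 3.68, -0.66 and 2.09 (adjusted p = 0.674, 0.0572, 0.398, 0.0546, 0.285 and 0.0854). The count was 6 without CD_WD replicate 1, 6 in DESeq2, 7 in a fit of the 6 libraries alone and 1 without any 1 of the CD_CD libraries, CD_WD replicate 2, WD_CD replicate 3 or WD_WD replicate 2, and total count scaling called 1 member higher and 4 lower.

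Smooth muscle genes were called lower in 11 of 20 members, with a median of -2.63. Myh11, the smooth muscle myosin, had 113, 62.2 and 348 in WD_WD, against 3524, 2022 and 3664 in CD_CD (log2 fold change -4.45 ± 0.78 SE, adjusted p = 0.00231). Itga8, an integrin of smooth muscle, had 28.3, 13.7 and 47.5 in WD_WD, against 790, 881 and 579 in CD_CD (log2 fold change -4.75 ± 0.76 SE, adjusted p = 0.00144). The groups did not overlap in either gene. Acta2, smooth muscle actin, had 14554, 5593 and 6177 in WD_WD, against 26660, 25692 and 41444 in CD_CD, lower in every WD_WD library and short of the threshold (log2 fold change -1.94 ± 0.85 SE, adjusted p = 0.115). Mylk, Smtn, Cald1 and Notch3, the Notch receptor of mural cells, fell, with log2 fold changes of -2.85, -2.65, -2.02 and -3.35. The CArG box, the motif of serum response factor, stood in 1 of 16 promoters of this list and in 1.35% of all promoters. The count of 11 was 5, 7 and 4 without CD_CD replicates 1, 2 and 3, 6 without WD_WD replicate 2 or 3, and 18 without CD_WD replicate 1.

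Fibroblast genes were called lower in 6 of 19 measured members, with a median of -1.27. Abi3bp, a matrix protein, held the largest fall among the genes named by size, with 0, 3.03 and 11.9 in WD_WD, against 338, 721 and 542 in CD_CD (log2 fold change -7.10 ± 0.94 SE, adjusted p = 0.000629). In WD_WD libraries it stood at 0, 2 and 3 reads. Fbln2, Col3a1 and Clec3b fell, with log2 fold changes of -4.72, -3.69 and -4.01. Dcn, decorin of adventitial fibroblasts, had 10059, 2516 and 5290 in WD_WD, against 4391, 19345 and 7721 in CD_CD and overlapped (log2 fold change -0.76 ± 1.18 SE, adjusted p = 0.67). Pi16, a mark of adventitial progenitors, had 4064, 1941 and 883 in WD_WD, against 2290, 5131 and 4096 in CD_CD and overlapped too (log2 fold change -0.93 ± 0.99 SE, adjusted p = 0.527). Lum and Mfap5 did not pass, with log2 fold changes of -0.33 and -0.71.

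Collagen and basement membrane genes were called lower in 20 of 27 members, with a median of -2.92, the lowest median of the lists with at least 10 measured genes. Lamb2, a laminin chain, had 254, 71.3 and 190 in WD_WD, against 2220, 2183 and 2456 in CD_CD (log2 fold change -3.91 ± 0.54 SE, adjusted p = 0.000688). Col4a1 and Col4a2, which form the collagen IV of basement membranes, fell, with log2 fold changes of -2.85 and -3.02. Col4a1 had 606, 713 and 376 in WD_WD, against 4952, 3414 and 3580 in CD_CD, with the CD_CD libraries all above the WD_WD libraries. Eln, elastin of the arterial lamellae, had 3357, 1093 and 566 in WD_WD, against 23480, 14206 and 23279 in CD_CD (log2 fold change -3.95 ± 0.82 SE, adjusted p = 0.00577). Hspg2, perlecan, Agrn and Fbn1, fibrillin 1, fell, with log2 fold changes of -2.76, -2.92 and -3.46. Sparc, a collagen-binding protein of many cells, had 31150, 8002 and 9792 in WD_WD, against 37668, 27965 and 58631 in CD_CD and overlapped (log2 fold change -1.55 ± 0.88 SE, adjusted p = 0.219). Matrix proteases and their inhibitors went both ways, with 3 of 16 called higher and 2 lower, against 13.0% and 10.4% of all genes. Plaur, the urokinase receptor of myeloid cells, had 3799, 12376 and 5638 in WD_WD, against 746, 1047 and 500 in CD_CD (log2 fold change 3.13 ± 0.42 SE, adjusted p = 0.000646), and Plau, urokinase, rose by 4.04. Without CD_WD replicate 1 the protease list held 5 genes called higher and 5 lower. Timp3, an inhibitor bound to matrix, had 735, 460 and 602 in WD_WD, against 10645, 9542 and 8993 in CD_CD (log2 fold change -4.04 ± 0.66 SE, adjusted p = 0.0016). Integrins also went both ways: Itgb2, the beta chain of leukocyte integrins, had 4380, 6785 and 4130 in WD_WD, against 293, 363 and 298 in CD_CD (log2 fold change 3.97 ± 0.40 SE, adjusted p = 0.000233), while Itgb1, the beta chain of matrix receptors, had 1320, 1189 and 1235 in WD_WD, against 7090, 5653 and 3357 in CD_CD (log2 fold change -2.04 ± 0.43 SE, adjusted p = 0.00657).

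Clock genes were called lower in 6 of 14 members and higher in 1. Tef, an output factor of the clock, had 89.9, 22.8 and 47.5 in WD_WD, against 879, 910 and 1073 in CD_CD (log2 fold change -4.33 ± 0.56 SE, adjusted p = 0.000604). Nr1d1, which encodes REV-ERB alpha, had 452, 288 and 115 in WD_WD, against 1992, 2220 and 1654 in CD_CD (log2 fold change -2.97 ± 0.81 SE, adjusted p = 0.0205). Nr1d2, Cry2, Per3 and Dbp fell, with log2 fold changes of -2.47, -1.88, -3.75 and -1.75. Bhlhe40, a repressor that inflammation also induces in macrophages, had 3522, 5767 and 4549 in WD_WD, against 1375, 2069 and 826 in CD_CD and rose (log2 fold change 1.76 ± 0.50 SE, adjusted p = 0.0235). Arntl and Clock, the activators of the loop, did not pass, with log2 fold changes of -0.70 and -0.60 (adjusted p = 0.704 and 0.5). The sources used here do not give the time of day at which cells were taken. The count called lower was 2, 2 and 3 without CD_CD replicates 1, 2 and 3.

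Chromatin modifiers were called lower in 7 of 35 members, with a median of -0.84. Smarca2, an ATPase of the SWI/SNF remodeller, had 426, 372 and 178 in WD_WD, against 1387, 1293 and 1329 in CD_CD (log2 fold change -2.13 ± 0.36 SE, adjusted p = 0.00202). Ezh1, a methyltransferase for H3K27, had 77.1, 19.7 and 95.0 in WD_WD, against 526, 372 and 371 in CD_CD (log2 fold change -2.96 ± 0.57 SE, adjusted p = 0.0038). Kmt2c and Kmt2d, which methylate H3K4 at enhancers, had log2 fold changes of -1.84 and -2.21 (adjusted p = 0.00965 and 0.00965). Hdac7, Hdac4 and Tet3 fell, with log2 fold changes of -2.92, -1.30 and -1.80. Ep300 and Crebbp, which write H3K27ac, had log2 fold changes of -0.93 and -1.28 and did not pass (adjusted p = 0.418 and 0.191). Kdm6b, which removes H3K27 methylation and is induced in macrophages, had 450, 2196 and 1121 in WD_WD, against 1218, 817 and 850 in CD_CD and overlapped (log2 fold change 0.13 ± 0.48 SE, adjusted p = 0.874). Dnmt3a had 1320, 2561 and 923 in WD_WD, against 442, 410 and 422 in CD_CD, higher in every WD_WD library and just short of the threshold (log2 fold change 1.78 ± 0.61 SE, adjusted p = 0.0527). With the trend on exon length removed (described below), 3 of these genes were called lower and 1 higher.

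Transcription factors of both lineages changed, with 6 of 26 called higher and 7 lower. Besides Spi1, the factors Irf5, Irf8, Cebpb and Runx1, which act in myeloid cells, rose by 3.34, 4.21, 2.98 and 2.66. Besides Erg, the factors Foxc1, Gata6, Gata2 and Elk3 fell, with log2 fold changes of -4.88, -3.30, -1.87 and -1.38. Fli1 and Ets1, which both lineages express, did not pass, with log2 fold changes of -0.59 and 1.13 (adjusted p = 0.23 and 0.286). The count of factors called lower was 1, 2 and 3 without CD_CD replicates 1, 2 and 3, and 3 without WD_WD replicate 2 or 3.

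Short transcripts of the translation and respiration machinery were higher. Cytosolic ribosomal proteins were called higher in 40 of 54 members, with a median of 2.10. Rpl38 had 6214, 6877 and 8762 in WD_WD, against 909, 846 and 1164 in CD_CD (log2 fold change 2.90 ± 0.51 SE, adjusted p = 0.00226), and Rpl35 had 94560, 35943 and 46270 in WD_WD, against 3352, 2795 and 3893 in CD_CD (log2 fold change 4.02 ± 0.74 SE, adjusted p = 0.00301). Many ribosomal protein genes have near-identical pseudogenes, and the sources used here do not say how such reads were counted. Nuclear genes of the respiratory chain were called higher in 19 of 31, with a median of 1.45 that stood at 0.04 under total count scaling. Cox5a, a subunit of cytochrome oxidase, had 10085, 10401 and 10920 in WD_WD, against 1168, 1001 and 1614 in CD_CD (log2 fold change 3.08 ± 0.37 SE, adjusted p = 0.00042), whereas Sdha, the large subunit of succinate dehydrogenase, had 1968, 2005 and 2186 in WD_WD, against 1866, 1743 and 1511 in CD_CD and did not pass (log2 fold change 0.27 ± 0.25 SE, adjusted p = 0.457). Proteasome subunits were called higher in 15 of 26, with a median of 1.00 that stood at -0.41 under total count scaling, and Psmb6 had 18196, 18348 and 15834 in WD_WD, against 2908, 1900 and 3048 in CD_CD (log2 fold change 2.76 ± 0.33 SE, adjusted p = 0.000374). Heat shock and unfolded protein genes were called higher in 7 of 19, among them Ddit3, which rose by 3.21, and Dnajb1 by 2.48. The ribosomal count was 18 and 13 without CD_CD replicates 1 and 2, and 20 and 25 without WD_WD replicates 1 and 3. The proteasome count was 9 without CD_CD replicate 1 or 2, and the heat shock count was 3 without CD_CD replicate 1, CD_CD replicate 3 or WD_WD replicate 2, 4 without WD_WD replicate 3 and 11 without CD_WD replicate 1.

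Fold changes went with the length of the gene's exons. Exon lengths came from GENCODE M21 on GRCm38 for 10592 of the 10655 genes, which were cut into 5 bins of equal size. In the shortest bin, 70 to 2456 bases, 29.8% of genes were called higher and 2.92% lower. In the longest bin, 7688 to 123179 bases, 3.35% were called higher and 19.2% lower. The median log2 fold change ran through 0.81, 0.15, -0.16, -0.42 and -0.81 across the 5 bins, and Spearman's rho across genes was -0.31. Genes are not independent, and those of a pathway share lengths: the median exon length was 2011 bases for ribosomal protein genes, 2101 for respiratory chain genes, 1944 for MHC class II genes, 3238 for core macrophage genes, 4379 for pan-endothelial genes, 7440 for chromatin modifiers and 8272 for collagen and basement membrane genes. Within each library, the median deviation of the shortest bin from the average over libraries, minus that of the longest bin, was 0.71 to 1.08 in WD_WD libraries and -0.87 to -0.52 in CD_CD libraries on the log2 scale. The part of RNA quality or of library preparation in this was not tested.

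**Figure D4:**
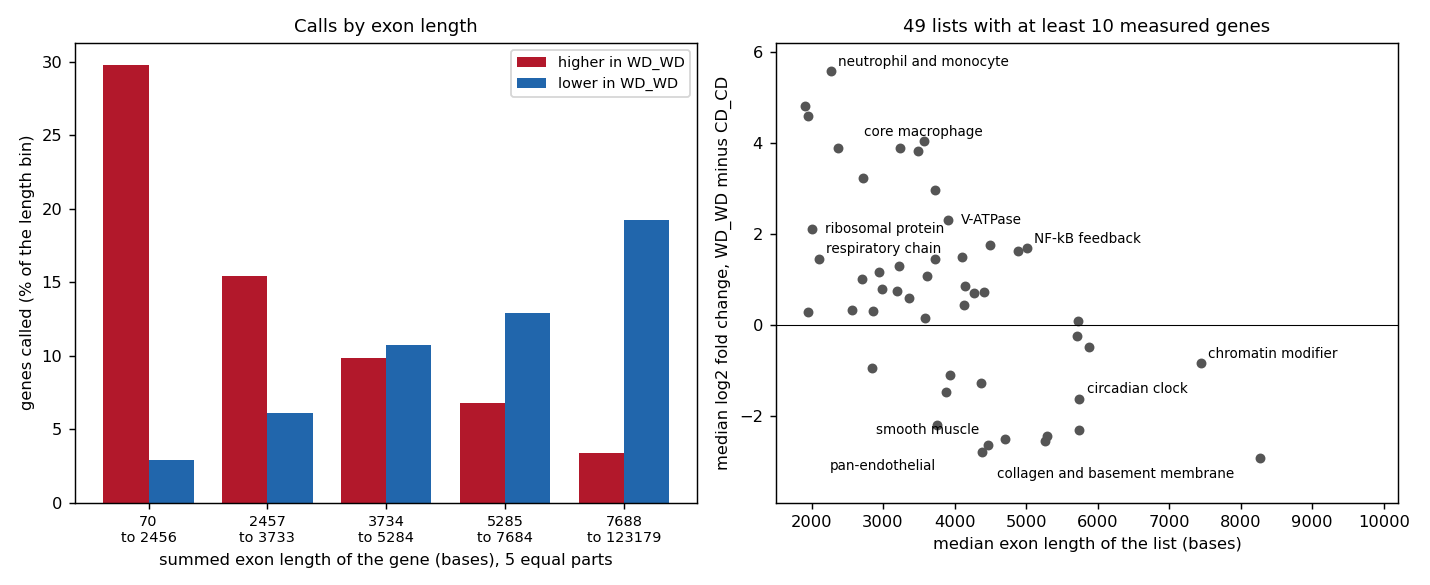
On the left, bars give the share of genes called higher (red) or lower (blue) in WD_WD in 5 bins of summed exon length, and on the right each point is 1 of 49 gene lists, by its median exon length in bases and its median log2 fold change. The share called higher drops over the bins to 3.35% and the share called lower climbs to 19.2%, and on the right the ribosomal protein list (2011 bases) lies at 2.10 and the collagen and basement membrane list (8272 bases) at -2.92.

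When each library's trend on exon length was removed before the same fit, an alternative chosen after seeing the data, 1057 genes were called higher and 814 lower. Of the genes called higher before, 877 (63.1%) were called higher again, and of those called lower 646 (58.5%) were called lower again. Core macrophage calls then stood at 17 of 27, lipid-laden macrophage calls at 16 of 27, MHC class II calls at 8 of 11, V-ATPase calls at 10 of 16 and hydrolase calls at 17 of 31, all higher. Pan-endothelial calls stood at 13 of 29 and collagen and basement membrane calls at 15 of 27, all lower. Ribosomal protein calls stood at 13 of 54, respiratory chain calls at 8 higher and 1 lower of 31, smooth muscle calls at 6 of 20 and chromatin calls at 1 higher and 3 lower of 35. Before that step the counts called higher had been 19, 18, 8, 13 and 16 for these 5 lists of macrophage, antigen presentation and lysosome genes, and 40 and 19 for the ribosomal and respiratory lists. Counts called lower moved to 3 of 13 for VEGF and angiopoietin genes, against 6 before, to 3 of 26 for transcription factors, against 7, to 2 of 15 for integrins, against 4, to 0 of 18 for iron genes, against 2, and to 1 of 15 for complement genes, against 2. Counts called higher moved to 2 of 15 for class I genes, against 6 before, to 2 of 15 for complement genes, against 4, to 2 of 9 for B cell genes, against 4, and to 1 of 15 for striated muscle genes, against 3. The single calls of Gbp7, Erap1 and Scap as lower in their lists were not made in that fit.

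A further fit asked how genes of a compartment changed relative to each other. In each library the mean over the 29 pan-endothelial genes was subtracted on the log2 scale, and a fold change then is a ratio to that mean. Relative to it, 42.6% of all genes were higher in WD_WD and 0.0657% lower. Among 130 genes of the endothelium lists 23 were higher and 1 lower. Nos3 and Cdh5 were not among them, with relative log2 fold changes of -0.48 and -1.40 (adjusted p = 0.644 and 0.191). Cdh5 is itself a member of the list that gives this mean, and 0 of the 29 members were called relative to it. Vcam1, Icam1 and Sele were higher relative to that mean, by 2.41, 2.53 and 3.61 (adjusted p = 0.0314, 0.03 and 0.012), and so was Klf2, by 3.65 (adjusted p = 0.0122). The subtraction raised the log2 fold change of every gene by the same amount. It moved the median of the adipocyte list, for 1, from 0.31 to 3.07. Vcam1 and Icam1 lay below that value, so their calls do not show a rise beyond that of the adipocyte list. Sele and Klf2 lay above it, and whether they rose beyond other genes was not tested. Without the subtraction none of these genes passed. Leukocytes also express Icam1 and Klf2, and the source of the RNA was not tested. Mmrn1, made by lymphatic endothelium and platelets, was the gene called lower, with a relative log2 fold change of -3.87 (adjusted p = 0.0193). The 24 calls became 11 without WD_WD replicate 2, 12 without WD_WD replicate 3, 15 without CD_CD replicate 1 or 3 and 53 without CD_WD replicate 1.

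Relative to the mean of the 27 core macrophage genes, 0.497% of all genes were higher in WD_WD and 73.6% lower. Among 124 genes of the macrophage and myeloid lists 27 were higher and 24 lower. S100a8 was higher by 7.97, Irg1 by 6.61, Trem2 by 4.83, Gpnmb by 3.57 and Spp1 by 4.07 (adjusted p = 2.66e-11, 2.71e-05, 9.87e-05, 0.00177 and 0.000766). Lyve1, Cd163, Mrc1 and Csf1r were lower, with relative log2 fold changes of -7.94, -7.56, -3.97 and -2.34 (adjusted p = 3.29e-10, 2.33e-06, 0.00142 and 0.0356). The subtraction gives all genes of a library the same added term, and limma draws the spread of each gene towards a common one. Tef, a clock gene, had -7.821 ± 1.161 SE here (adjusted p = 3.45e-09), against -4.335 ± 0.565 SE in the main fit (adjusted p = 0.000604). Adjusted p-values of this fit therefore do not measure the spread of a gene's own libraries. The subtraction lowered the log2 fold change of every gene by the same amount. It moved the median of the adipocyte list, for 1, from 0.31 to -3.18. Csf1r lay above that value and Mrc1 near it, so their calls show only a smaller rise than that of the core macrophage mean, or none. Of the 13 resident macrophage genes 11 were lower relative to this mean, as were 73.6% of all genes, so the count is not particular to that list. Trem2, Cd163, Mrc1 and Csf1r are themselves members of the list that gives this mean. Some of these genes are also made by endothelium, as Lyve1 is, and their source was not tested.

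**Figure D5:**
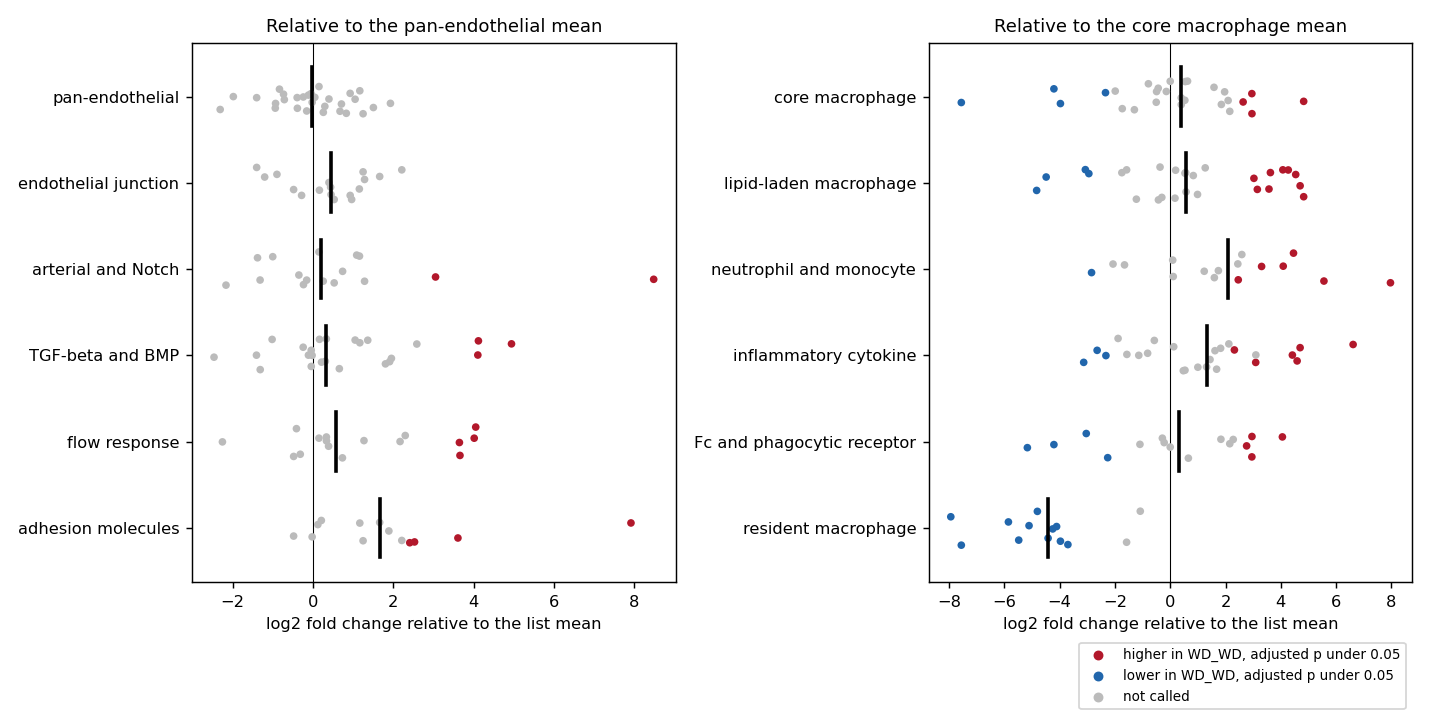
Each point is a gene of a list by its log2 fold change of WD_WD minus CD_CD after the mean of the pan-endothelial list (left) or of the core macrophage list (right) was subtracted in each library; red and blue points passed an adjusted p of 0.05 in limma and black bars are list medians. On the left, among the 6 lists drawn, the adhesion list has the highest median (1.66), with Cxcr4 (8.49) and Ccl2 (7.92) farthest to the right. On the right, resident macrophage genes lie left of 0 while the other lists spread to both sides. Relative to these means, 42.6% of all genes were called higher on the left and 73.6% lower on the right.

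In some genes the 3 WD_WD libraries lay outside the range of the 9 other libraries, those of CD_WD, WD_CD and CD_CD. Over all 10655 genes they were above the 9 others in 3.29% and below them in 1.84%. Tested directly against CD_WD, 0 genes were called in either direction in limma, so none of these genes is shown to differ between WD_WD and CD_WD. With a mean of at least 100 in the higher group, 227 called genes had all 3 WD_WD libraries above all 9 others and 133 had them below. The widest gaps upward, on the log2 scale between the lowest WD_WD library and the highest of the 9, were those of Syngr1 (1.26) and Trem2 (1.24). Syngr1, a vesicle membrane protein, had 7973, 6427 and 6494 in WD_WD, against 2.77, 135 and 35.7 in CD_CD and 91.3, 1394 and 2690 in CD_WD libraries. Trem2 had 98.9, 2084 and 3720 in CD_WD libraries, replicate 1 of which lay within the range of CD_CD. Fbxo32, a ubiquitin ligase of wasting muscle, had 876, 1121 and 1382 in WD_WD, against 118, 188 and 194 in CD_CD and 185, 287 and 415 in CD_WD libraries (log2 fold change 2.76 ± 0.50 SE, adjusted p = 0.00285). Downward the widest gap was that of Abi3bp (3.13), which had 112, 1084 and 560 in CD_WD libraries and 498, 556 and 366 in WD_CD libraries. Pura, a nucleic acid binding protein, had 12.8, 7.58 and 11.9 in WD_WD, against 106, 139 and 162 in CD_CD (log2 fold change -3.55 ± 0.73 SE, adjusted p = 0.00527), and 152, 83.7 and 52.5 in CD_WD libraries. Its WD_WD values stand for few reads, as 1 read was worth 1.52 to 3.96 normalised counts there. These genes were picked for their gap, so the gap itself is a description.

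Genes that led the comparison are given here in the other groups as well. S100a8 had 39847, 148746 and 18062 in CD_WD libraries and 319, 5.18 and 74.9 in WD_CD libraries, and H2-Aa had 362426, 58724 and 63033 in CD_WD libraries and 8552, 936 and 3356 in WD_CD libraries. Ptprb had 88.7, 845 and 1313 in CD_WD libraries and 7678, 13768 and 11923 in WD_CD libraries. In these 3 genes the CD_WD libraries overlapped with the WD_WD libraries and the WD_CD libraries with the CD_CD libraries. Against WD_CD, 1516 genes were higher in WD_WD (14.2%) and 1088 lower (10.2%), and CD_WD against CD_CD gave 1008 higher (9.46%) and 591 lower (5.55%). WD_WD against CD_WD, the offspring on WD of either mother, gave 0 calls in limma, with 248 genes higher and 380 lower at an unadjusted p under 0.05, 0 in edgeR, and 3 higher and 11 lower in DESeq2. WD_CD against CD_CD, the offspring on CD, gave 0 calls in limma, with 82 higher and 194 lower at an unadjusted p under 0.05, 0 in edgeR, and 2 higher and 7 lower in DESeq2. These contrasts share libraries with the main one and are given side by side only.

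Among the 15 largest rises and 15 largest falls, several genes lie outside the lists above. Hcar2, a receptor for niacin and ketone bodies on myeloid cells, had 562, 6601 and 2186 in WD_WD, against 0, 23.3 and 26.8 in CD_CD (log2 fold change 7.84 ± 1.65 SE, adjusted p = 0.00618). Ccl17, a chemokine of dendritic cells and macrophages, had 2751, 1903 and 800 in WD_WD, against 0, 17.6 and 30.4 in CD_CD (log2 fold change 7.59 ± 1.58 SE, adjusted p = 0.00583). Both were at 0 in CD_CD replicate 1. Klk10, a secreted serine protease, had 419, 1.52 and 142 in WD_WD, against 3799, 6275 and 6468 in CD_CD (log2 fold change -6.65 ± 1.57 SE, adjusted p = 0.0109). Hoxb2, a positional transcription factor, had 38.5, 0 and 0 in WD_WD, against 370, 279 and 198 in CD_CD (log2 fold change -6.33 ± 1.77 SE, adjusted p = 0.0231). C1qtnf9, an adipokine-like secreted protein, had 59.1, 1.52 and 0 in WD_WD, against 840, 171 and 507 in CD_CD (log2 fold change -6.30 ± 1.30 SE, adjusted p = 0.00549). In these 3 genes no WD_WD library reached the lowest CD_CD library. Col23a1, Igsf3, Megf6, Ndn, Epdr1 and Plek2 fell, with log2 fold changes of -5.39, -5.86, -5.68, -5.40, -5.88 and -5.46.

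Xist, the RNA that silences 1 X chromosome in females, had 308, 461 and 313 in WD_WD, against 1607, 1305 and 1278 in CD_CD, in all libraries above 0 (log2 fold change -1.97 ± 0.31 SE, adjusted p = 0.00133). Genes of the X chromosome as a whole had a median log2 fold change of -0.17 over 307 genes, against -0.10 over 10285 autosomal genes. Xist is a long transcript, and with the trend on exon length removed its log2 fold change was -0.93 (adjusted p = 0.0498).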

How the data were processed

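Aortic endothelial cell RNA of 12 libraries was sequenced by SMART-seq from TRIzol extracts, per the labels' protocols. The submitters' processing notes list, with no role or order, the builds GRCm38 and mm10 and the tools DESeq2, featureCounts 2.0.1, HISAT2 2.2.1, SAMtools, FastQC 0.12.1 and Trim Galore 0.6.10. The authors deposited normalised counts (signal values), in which whole reads divided by a size factor per library were recovered: 100% of 127860 values lay within 0.01 of a whole number, taking the lowest value of CD_CD replicate 3 as 3 reads. The table holds 10655 genes, and 18 of its symbols had become dates. As the deposited values are not counts, log2(value + 1) was tested with limma 3.58.1 (R 4.3.3, trend, 4 group means over 12 libraries, Benjamini-Hochberg adjustment over 10655 genes, threshold 0.05). The added 1 shrinks changes of low genes on this scale. Libraries at 0 or few reads can also make a log2 fold change larger than the ratio of group means, as in Hoxb2. On recovered reads, edgeR 4.0.16 and DESeq2 1.42.0 were run as alternatives, beside other scalings, pseudocounts of 10, filters, library weights, a replicate block, left-out libraries and, chosen after seeing the data, removal of the exon length trend. The limma step was tested on simulated data. Named genes were the 15 largest rises and 15 largest falls with a mean of at least 100 and no overlap, called members of gene lists, the 4 members of each list with the smallest p, and all adhesion, flow, AP-1 and chromatin genes used; further genes that did not pass were named after their values were seen. Lists share members. The comparison and the lists were chosen with earlier results of these data known. Chromatin assays of the series were not analysed here.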

Additional observations from a re-analysis of the deposited data

How the results depend on the processing

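Counts of genes higher and lower kept within 1.5 times of 1390 and 1104 with edgeR (1145 and 1038, of which 1130 and 961 were the same genes) and DESeq2 (1709 and 1375, of which 1352 and 1073 were), with only the 6 libraries (1724 and 1265), library weights (1538 and 1423), a pseudocount of 10 (1579 and 1280), TMM (1245 and 1257) and upper quartile scaling (1092 and 1433). Total count scaling gave 407 and 4462, and the cause was not tested. Leaving out 1 library gave 855 to 1697 higher and 446 to 1545 lower genes; the lowest counts came without CD_CD replicate 1 or 2 and the highest without CD_WD replicate 1. Relative to the pan-endothelial mean the 24 endothelium-related calls became 50 with only the 6 libraries and 70 with library weights, and 11 to 53 with 1 library left out; relative to the core macrophage mean the 51 calls became 79 and 82, and 35 to 62. With replicate number as a block there were 1290 higher and 948 lower genes, and 22 and 43 relative calls; same-numbered libraries did not deviate together (r = -0.0186, 0.0715 and 0.0407 for numbers 1, 2 and 3), so the numbers were not taken to pair them. Of 295 genes named in the report, 288 kept direction and side of the threshold under TMM scaling, 266 in edgeR, 272 in DESeq2, 200 under total count scaling, and 225 to 288 with 1 library left out. With the exon length trend removed 243 of 294 did, while 38 no longer passed, 6 newly passed and 7 turned direction. Genes called in the report that turned direction were Atp6v0d1 and Nfe2l2, under total count scaling. Log2 fold changes turned direction, for causes not tested, as follows. Under total count scaling the values were Abca1 -0.60, Atp6v0d1 -0.16, Atp6v1a -0.61, Axl -0.97, Csf1r -0.27, Cxcl1 -0.26, Ets1 -0.28, Fos -0.76, Hes1 -1.12, Hif1a -1.25, Ifit1 -0.19, Ifit3 -0.88, Il6 -1.05, Irf1 -0.97, Jun -0.69, Junb -1.08, Jund -0.26, Kdm6b -1.28, Klf2 -0.53, Lamp1 -0.64, Lamp2 -1.08, Lcn2 -0.77, Nfe2l2 -0.12, Nostrin -0.14, Piezo1 -0.51, Sdha -1.14 and Sele -0.56. In edgeR the values were Adipoq -0.22 and Arntl 0.14. In DESeq2 the values were Adipoq -0.11 and Arntl 0.25. Under removal of the exon length trend the values were Clock 0.27, Hes1 -0.31, Ifit3 -0.26, Il6 -0.062, Junb -0.14, Vcam1 0.23 and Zbtb46 0.37. Under upper quartile scaling the values were Hif1a -0.067 and Kdm6b -0.11. Under library weights the value of Kdm6b was -0.032. Over the fits that leave out 1 library, the ranges of genes that turned were Adipoq -0.11 to 3.81, Arntl -1.76 to 1.01, Ep300 -1.56 to 0.015, Hif1a -0.21 to 0.60, Icam1 -0.67 to 0.13, Il6 -0.32 to 0.89, Junb -0.024 to 0.88, Kdm6b -0.41 to 0.73, Lcn2 -0.10 to 1.62, Lum -0.79 to 0.18, Mrc1 -1.31 to 0.13 and Zbtb46 -0.51 to 0.10. The 4074413 to 12487609 reads of the WD_WD libraries set the limit for genes near 3 reads, where fold changes depend on the pseudocount.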

Other observations

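CD_CD replicate 3 differed from the other libraries at the low end of the table. It had 0 genes with fewer than 3 reads and 7 with 3 to 10 reads, and its lowest value stood for 3 reads. WD_WD libraries had 46, 178 and 202 genes at 0 reads, CD_CD replicates 1 and 2 had 172 and 55, WD_CD libraries 168, 164 and 463, and CD_WD libraries 59, 12 and 1.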
